A study of Mus musculus with 16 samples.

Results

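The epidermal growth factor (EGF) receptors and their ligands were followed in mIMCD3 cells, a line from the inner medullary collecting duct of an SV40 transgenic mouse. They are 10 genes of the 54393 in the count table, chosen by name: the receptors *Egfr*, *Erbb2* and *Erbb3* and the ligands *Areg*, *Btc*, *Tgfa*, *Hbegf*, *Ereg*, *Epgn* and *Nrg1*. Earlier results of these data were known at the choice, so counts set beside shares of all tested genes are descriptions. All cells were grown for 10 days on permeable filters in a medium whose supplements include EGF, and then received doxycycline (DOX, 2 µg/mL) or its vehicle DMSO for 3 or 6 days. This gave 4 groups of 4 libraries: DMSO 3 days, DOX 3 days, DMSO 6 days and DOX 6 days. All groups were of the same line, and the labels do not say whether replicates came from separate cultures, so p-values measure the spread between these libraries. Polyadenylated RNA was sequenced, and total counts per library ran from 16933343 to 23960860.

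EGF receptors are tyrosine kinases of the cell surface that pair when a ligand binds and then signal through the RAS-ERK and PI3K-AKT cascades. ERBB2 has no known ligand of its own and acts as a partner, and ERBB3 has a weak kinase and binds neuregulins. The ligands are made as membrane proteins and are shed by ADAM proteases, and in the renal tubule they are known for roles in growth, repair after injury and transport.

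The 7 epithelial marker genes were all expressed, with a summed level of 1597 to 2628 TPM (counts divided by transcript length and scaled to a common total) over the 16 libraries. Markers of collecting duct principal cells were nearly absent: 2 of 8 were abundant enough to be tested, and *Aqp2*, the vasopressin-regulated water channel, reached at most 0.391 TPM. The 8 principal cell markers summed to 4.36 to 6.38 TPM in DMSO libraries and 1.698 to 3.43 TPM in DOX libraries. Endothelial markers summed to 0.511 to 1.46 TPM. Fibroblast markers were near 0, with a summed level of at most 1.15 TPM. Of 6 immune markers, *Cd68* and *Csf1r* were expressed, and their list summed to 24.9 to 32.5 TPM in DMSO libraries and 10.8 to 16.6 TPM in DOX libraries, with *Adgre1*, *Lyz2* and *Cd3e* at 0.176 TPM or less. The summed epithelial markers were also lower in DOX libraries at both times (1597 to 1860 TPM against 2164 to 2628 TPM). The largest parts of this sum were *Krt18* (636 to 955 TPM) and *Krt8* (348 to 738 TPM). The TPM scale itself ran lower under DOX at 3 days, as given below, so marker sums of that time are not read as changes. The part of cell makeup in the results below was not tested. In such bulk samples fewer cells of a type and less RNA per cell cannot be told apart. In 3 of the 4 DOX 3 day libraries (replicates 2, 3 and 4), long transcripts were lower relative to the average of each gene. The correlation of that deviation with log transcript length across genes, which are not independent replicates, was -0.301 to -0.235 there, against 0.0885 in DOX 3 day replicate 1 and 0.0919 to 0.238 in DMSO 3 day libraries. At 6 days this correlation ran from -0.152 to 0.187 in DMSO and from -0.0759 to 0.0819 in DOX libraries. The 8 tested genes and the gene lists are therefore also given at 3 days from a fit with a length and GC offset. This offset removes the smooth trend with transcript length and GC content from each library. *Erbb2* and *Erbb3* have long transcripts (3277 and 6016 bases on average, against a median of 1756 over tested genes), and *Areg* a short one (1215 bases).

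Among the 10 genes, the DMSO-treated cells expressed *Egfr* and *Hbegf* most. Levels are compared between genes in TPM, as means over the 8 DMSO libraries. *Egfr*, the receptor for 6 of the 7 ligands, was at 38.6 ± 4.11 TPM (SD, n = 8), and *Hbegf*, heparin-binding EGF-like growth factor, at 36.2 ± 3.22 TPM. Next came *Erbb2* at 18.5 ± 2.16 TPM, *Erbb3* at 17.4 ± 1.97 TPM and *Tgfa*, transforming growth factor alpha, at 15.9 ± 1.73 TPM. *Nrg1*, the neuregulin that binds ERBB3 and ERBB4, was at 12.9 ± 1.01 TPM, *Areg* (amphiregulin) at 7.57 ± 1.87 TPM and *Btc* (betacellulin) at 3.47 ± 0.268 TPM. In this order the libraries of *Egfr* and *Hbegf* overlapped, as did those of neighbours from *Erbb2* to *Nrg1*. They did not overlap between *Hbegf* and *Erbb2*, between *Nrg1* and *Areg*, between *Areg* and *Btc* or between *Btc* and the 2 genes below it.

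Those 2 genes, *Ereg* (epiregulin) and *Epgn* (epigen), were at or near the floor. *Ereg* had 26 estimated counts in all 16 libraries, with at most 4 in a library and 0 in 4 libraries, and *Epgn* had 9, with at most 3 and 0 in 10 libraries. A count of 3 corresponds to 0.125 to 0.177 CPM (counts scaled to library size) in these libraries, so differences in either gene were not detectable at this depth, and neither was tested. The other 8 genes passed the filter of 1 CPM in 4 libraries, among 13234 tested genes.

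*Epgn*, *Ereg*, *Areg* and *Btc* are neighbours on chromosome 5, within 375.5 kb (GRCm38, 91027464 to 91402994) that hold 7 annotated genes, 4 of them protein coding. *Areg* (ENSMUSG00000029378, chr5:91139599-91148432, plus strand) and *Btc* (ENSMUSG00000082361, chr5:91357261-91402994, minus strand) were expressed in every library. *Epgn* (ENSMUSG00000035020, chr5:91027464-91035215, plus strand) and *Ereg* (ENSMUSG00000029377, chr5:91074622-91093646, plus strand) were not expressed above the floor, and an antisense transcript overlaps *Ereg*. *Tgfa* (ENSMUSG00000029999) lies at chr6:86195223-86275719 on the plus strand, *Hbegf* (ENSMUSG00000024486) on the minus strand of chromosome 18 (36504927 to 36515805) and *Nrg1* (ENSMUSG00000062991) at chr8:31814551-32884029 on the minus strand. The receptors are *Egfr* (ENSMUSG00000020122, chr11:16752203-16918158, plus strand), *Erbb2* (ENSMUSG00000062312, chr11:98412470-98437716, plus strand) and *Erbb3* (ENSMUSG00000018166, chr10:128567523-128589652, minus strand). Genes on the opposite strand overlap *Egfr* (the antisense *Egfros*), *Erbb2* (*Mien1*), *Tgfa* and *Nrg1*. The library kit keeps strand, but the strand setting of the quantification is not given in the sources used here, so counts of these genes could include reads of their partners.

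The comparison of DOX with DMSO asks how the antibiotic, widely used as an inducer of transgenes, alters the transcripts of polarized renal cells. Under DOX the ligand profile changed: *Areg* and *Btc* rose at both times, *Tgfa* fell at both times and *Hbegf* fell at 6 days. Among receptors, *Erbb2* and *Erbb3* fell at 3 days, and *Egfr* passed the test at neither time. With the length and GC offset the 3 day calls of *Erbb3* and *Tgfa* were lost. The 3 day call of *Btc* was the least stable, kept in 15 of the 28 alternatives and lost under DESeq2. At 6 days every DOX library was again below every DMSO library for *Erbb2*, which did not pass the test there. The offset lost no call of the 8 genes at 6 days and added that of *Erbb2*. At 3 days 5 of the 8 tested genes were called, 2 higher and 3 lower, by edgeR's test for a change larger than 1.2-fold at an adjusted p of 0.05. Of all tested genes 12.5% were called at 3 days, 5.3% higher and 7.22% lower. At 6 days 4 of 8 were called, 2 higher and 2 lower, against 21.6% of all tested genes, 10% higher and 11.6% lower. The 2 groups did not overlap for 6 of the 8 genes at 3 days and for 6 of 8 at 6 days, against 38.6% and 43% of all tested genes. The median log2 fold change of the 8 was -0.19 at 3 days and -0.05 at 6 days, against 0.00 for all tested genes at both times.

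The counts depend on the rule for a call, and each is set beside the share of all tested genes under the same rule. Without a fold threshold 6 of the 8 passed at 3 days and 7 at 6 days, against 45.2% and 50.6%. DESeq2 called 3 at 3 days and 4 at 6 days, against 7.7% and 14.8%. With the length and GC offset 3 were called at 3 days and 5 at 6 days, against 11.7% and 23.4%. With the replicate number as a block 4 were called at each time, against 11.9% and 20.9%, and limma on log2(TPM + 1) called 3 and 2, against 5.32% and 9.92%. Without the filter on low counts 3 were called at 3 days, against 4.9% of 34114 genes. That share takes in many genes of low counts, so it is not comparable with the others. *Ereg* and *Epgn* were tested in that fit too and were not called.

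**Figure D1:**
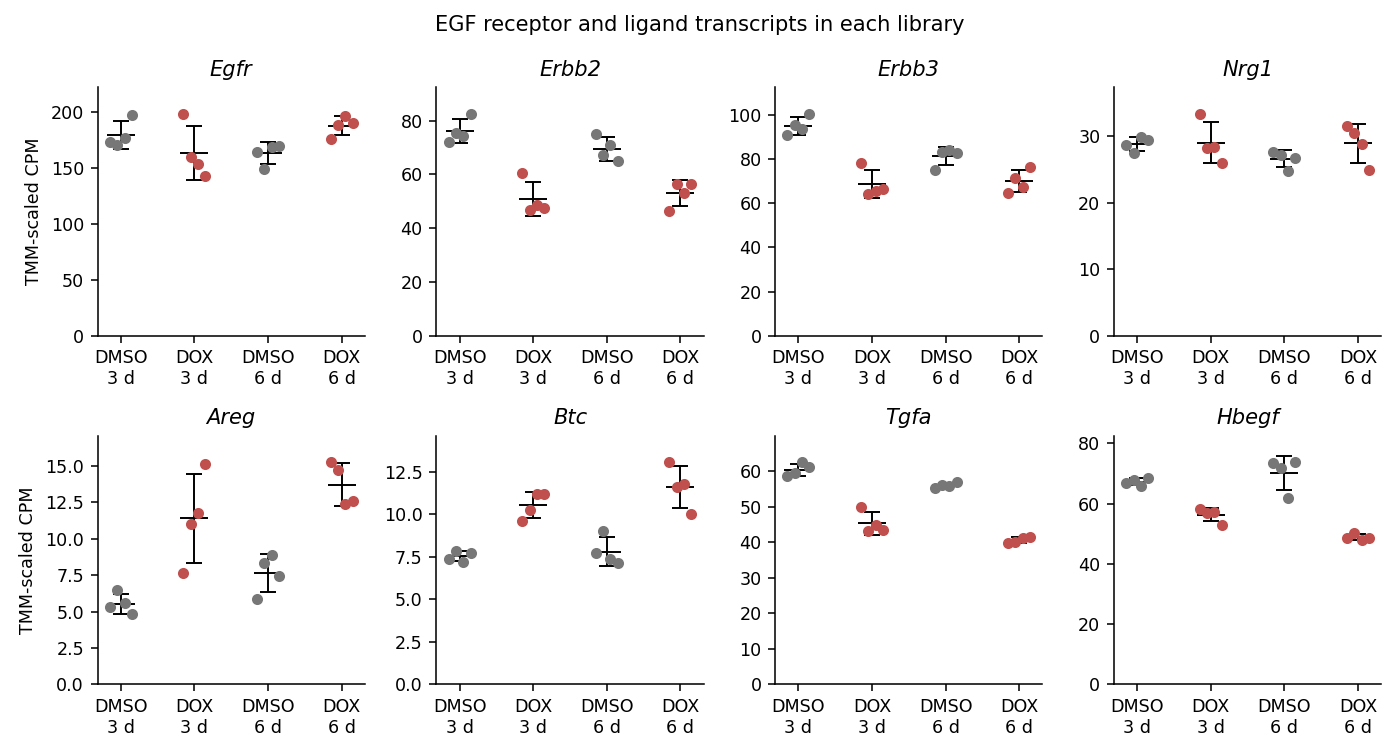
Level of the 8 tested genes in TMM-scaled CPM (y axes from 0) in each of the 16 libraries, with 1 point per library ordered by replicate number, grey for DMSO and red for DOX, and bars for mean ± SD (n = 4). *Areg* and *Btc* of DOX libraries lie above those of DMSO libraries at both times, and *Tgfa* and *Hbegf* lie below. DOX 3 day replicate 1 is the lowest DOX 3 day library for *Areg* and *Btc* and the highest for the other genes.

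*Areg*, a ligand of EGFR that is itself a common target of growth signals, showed the largest change of the 8 genes at both times. Levels between conditions are TMM-scaled CPM. At 3 days the 4 DMSO libraries had 5.31, 6.46, 5.60 and 4.81 CPM, and the 4 DOX libraries had 7.65, 11.0, 11.8 and 15.2 CPM. At 6 days the DMSO libraries had 5.87, 8.31, 8.86 and 7.47 CPM and the DOX libraries 15.3, 14.7, 12.4 and 12.6 CPM. Every DOX library was above every DMSO library of its time, and the DOX libraries of 3 days were the most spread. The log2 fold change was 1.03 (SE 0.167), a 2.05-fold rise, with an adjusted p of 0.000694 at 3 days (edgeR, Benjamini-Hochberg over all tested genes). It was 0.84 (SE 0.158), a 1.80-fold rise, with an adjusted p of 0.00171 at 6 days. With the length and GC offset it was 0.93 (SE 0.147) and 0.87 (SE 0.139), and *Areg* was called at both times under each of the 28 alternatives.

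The promoter of *Areg* is shown because the gene rose at both times and the window holds 1 of the searched motifs. The sequence is from RefSeq on GRCm38.p6 (chr5:91139349-91139648, plus strand) and covers 250 bases before to 50 after the start, 5′ to 3′, with the match to the cyclic AMP response element (CRE, TGACGTCA) in capitals.
Areg promoter: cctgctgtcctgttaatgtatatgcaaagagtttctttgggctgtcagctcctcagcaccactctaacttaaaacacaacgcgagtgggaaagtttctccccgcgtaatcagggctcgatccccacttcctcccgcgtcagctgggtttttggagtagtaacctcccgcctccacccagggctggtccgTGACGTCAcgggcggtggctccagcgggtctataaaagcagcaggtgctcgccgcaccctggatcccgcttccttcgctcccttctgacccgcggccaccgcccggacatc
The CRE match begins 61 bases before the start, and 1.79% of the 32851 promoters in the table hold one. The other motifs searched on both strands were AP-1 (TGACTCA or TGAGTCA, in 5.20% of promoters), TEAD (GGAATG, 14.7%), EGR (GCGTGGGCG or GCGGGGGCG, 3.47%) and ETS (CCGGAAGT, 3.89%), and none of these strings occurs in this window. A match is a string in the reference and no evidence of binding.

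*Btc*, which binds EGFR and ERBB4, was less abundant and also rose at both times. At 3 days its levels were 7.39, 7.87, 7.18 and 7.71 CPM in DMSO libraries and 9.60, 10.2, 11.2 and 11.2 CPM in DOX libraries. At 6 days they were 7.71, 9.05, 7.35 and 7.11 CPM in DMSO libraries and 13.0, 11.6, 11.8 and 10.0 CPM in DOX libraries. In CPM the groups did not overlap at either time. In TPM they overlapped at 3 days, with 3.11 to 3.79 in DMSO and 3.60 to 4.81 in DOX libraries. The log2 fold change was 0.48 (SE 0.097, adjusted p = 0.0386, edgeR) at 3 days and 0.57 (SE 0.096, adjusted p = 0.00338, edgeR) at 6 days. The call at 3 days was lost when any of the 4 DMSO 3 day libraries or DOX 3 day replicate 2, 3 or 4 was left out, with log2 fold changes of 0.45 to 0.49 there. It was kept with the length and GC offset (0.50, adjusted p = 0.0274, edgeR).

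*Tgfa*, the EGFR ligand closest in kind to EGF itself, fell at both times. At 3 days its levels were 58.6, 59.5, 62.4 and 61.2 CPM in DMSO libraries and 49.98, 43.1, 44.7 and 43.3 CPM in DOX libraries. At 6 days they were 55.4, 56.1, 55.9 and 56.8 CPM in DMSO libraries and 39.8, 39.9, 41.1 and 41.4 CPM in DOX libraries. Every DOX library was below every DMSO library of its time, with little spread at 6 days. *Tgfa* fell by 25.1% at 3 days (log2 fold change -0.42, SE 0.054, adjusted p = 0.0118, edgeR) and by 27.6% at 6 days (log2 fold change -0.47, SE 0.054, adjusted p = 0.000986, edgeR). With the length and GC offset the value at 3 days was -0.33 and was not called (adjusted p = 0.153, edgeR), and at 6 days it was -0.51 and was called.

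The promoters of *Btc* (chr5:91402945-91403244, minus strand) and *Tgfa* (chr6:86194972-86195271, plus strand), again from RefSeq on GRCm38.p6, are shown as the other genes that changed at both times, and no string of the 5 motifs occurs in either, so both are in lower case.
Btc promoter: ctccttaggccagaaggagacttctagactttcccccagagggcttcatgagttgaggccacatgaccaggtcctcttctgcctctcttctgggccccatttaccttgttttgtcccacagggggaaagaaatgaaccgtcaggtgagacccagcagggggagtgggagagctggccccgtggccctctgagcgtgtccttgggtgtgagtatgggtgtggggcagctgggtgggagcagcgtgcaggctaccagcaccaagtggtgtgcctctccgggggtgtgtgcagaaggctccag
Tgfa promoter: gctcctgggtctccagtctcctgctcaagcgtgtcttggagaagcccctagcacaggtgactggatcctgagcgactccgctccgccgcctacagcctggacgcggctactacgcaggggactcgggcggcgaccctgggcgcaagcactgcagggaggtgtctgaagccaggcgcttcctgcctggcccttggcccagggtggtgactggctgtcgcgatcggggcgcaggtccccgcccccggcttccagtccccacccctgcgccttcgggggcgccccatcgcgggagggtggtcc
Guanine and cytosine made up 70.7% of the *Tgfa* window, 60.3% of the *Btc* window and 59.3% of the *Areg* window. The table held a promoter for 6 of the 10 genes. Among those not shown, the *Erbb2* promoter held a TEAD match (GGAATG) that begins 88 bases before the start, a string found in 14.7% of promoters.

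*Hbegf*, the most abundant ligand, fell at 6 days. At 6 days its levels were 73.4, 71.7, 61.9 and 73.6 CPM in DMSO libraries and 48.6, 50.4, 48.0 and 48.7 CPM in DOX libraries. At 3 days they were 66.7, 67.8, 65.8 and 68.5 CPM in DMSO libraries and 58.1, 56.9, 57.3 and 53.0 CPM in DOX libraries. DOX libraries were below DMSO libraries at both times, with the wider gap at 6 days. At 6 days *Hbegf* fell by 30.3% (log2 fold change -0.52, SE 0.057, adjusted p = 0.000185, edgeR), and this call held under each of the 28 alternatives. At 3 days the log2 fold change was -0.26 (SE 0.057), within the 1.2-fold threshold and not called (adjusted p = 0.723, edgeR), and with the length and GC offset it was -0.20.

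*Nrg1*, the ligand of ERBB3, passed the test at neither time. Its 4 libraries ranged from 27.5 to 29.9 CPM (DMSO) and 26.1 to 33.4 CPM (DOX) at 3 days, and from 24.8 to 27.7 CPM (DMSO) and 24.9 to 31.6 CPM (DOX) at 6 days. The groups overlapped at both times. The log2 fold change was 0.01 at 3 days, with a 95% interval of -0.15 to 0.16 (0.05 with the length and GC offset), and 0.12 at 6 days, with an interval of -0.03 to 0.27.

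*Erbb2*, the ligandless partner, had 72.2, 75.5, 74.3 and 82.5 CPM in DMSO libraries and 60.3, 46.7, 48.4 and 47.7 CPM in DOX libraries at 3 days. At 6 days it had 75.2, 67.1, 71.0 and 64.8 CPM in DMSO libraries and 46.4, 56.3, 53.0 and 56.5 CPM in DOX libraries. The groups did not overlap at either time, and DOX 3 day replicate 1 was nearest to the DMSO libraries. *Erbb2* fell by 33.3% at 3 days (log2 fold change -0.59, SE 0.080, adjusted p = 0.00113, edgeR). The fall was smaller with the length and GC offset, at -0.37 (SE 0.049, adjusted p = 0.0363, edgeR). At 6 days the log2 fold change was -0.39 (SE 0.080) and was not called (adjusted p = 0.0789, edgeR), but it was called with the offset (-0.41, adjusted p = 0.00415, edgeR) and when DOX 3 day replicate 1 was left out (-0.39, adjusted p = 0.0374, edgeR).

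*Erbb3*, the neuregulin receptor, had 91.1, 95.5, 93.5 and 100.6 CPM in DMSO libraries and 78.3, 64.4, 65.8 and 66.4 CPM in DOX libraries at 3 days. At 6 days it had 75.3, 83.2, 84.0 and 82.8 CPM in DMSO libraries and 64.8, 71.7, 67.4 and 76.3 CPM in DOX libraries. The groups were apart at 3 days and overlapped at 6 days. *Erbb3* fell by 27.9% at 3 days (log2 fold change -0.47, SE 0.066, adjusted p = 0.00646, edgeR). With the length and GC offset this value was -0.23 and the call was lost (adjusted p = 1, edgeR). At 6 days the log2 fold change was -0.22 (SE 0.066) and was not called.

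*Egfr* had 173, 170.3, 177 and 197 CPM in DMSO libraries and 198, 160.1, 154 and 143 CPM in DOX libraries at 3 days. At 6 days it had 164, 149, 169 and 170.0 CPM in DMSO libraries and 176, 189, 196 and 190.1 CPM in DOX libraries. The groups overlapped at 3 days, and at 6 days every DOX library was above every DMSO library. The log2 fold change was -0.13 (SE 0.079) at 3 days and 0.20 (SE 0.079) at 6 days, and neither passed the 1.2-fold threshold. At 3 days it was -0.01 (SE 0.062) with the length and GC offset.

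**Figure D2:**
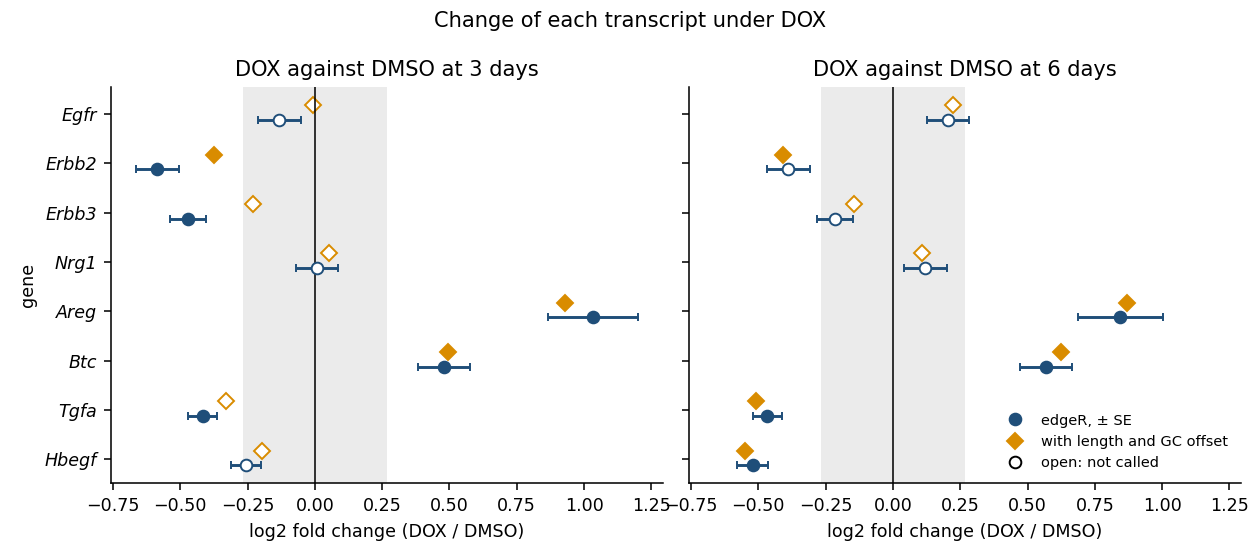
Log2 fold change of DOX against DMSO at 3 days (left) and 6 days (right) for the 8 tested genes, from edgeR (blue circles, bars ± SE) and from edgeR with the length and GC offset (orange diamonds), with filled symbols where called and a grey band for changes under 1.2-fold. At 3 days the offset moved *Erbb2* from -0.59 to -0.37 and *Erbb3* from -0.47 to -0.23, and *Areg* from 1.03 to 0.93.

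The effect of DOX differed between the times for 2 of the 8 genes, against 17% of all tested genes, by edgeR's test of the difference without a fold threshold. With the length and GC offset it differed for 1 gene, against 15.1%, and with the replicate block for 1, against 13.4%. For *Egfr* the effect was higher at 6 days than at 3 days by 0.34 (SE 0.111, adjusted p = 0.0421, edgeR), and for *Hbegf* it was lower by a log2 value of -0.27 (SE 0.080, adjusted p = 0.0278, edgeR). Both calls depended on single libraries. The call for *Egfr* was lost with the length and GC offset (0.23, adjusted p = 0.0739, edgeR) and on leaving out any of 10 of the 16 libraries (DMSO 3 day replicates 2, 3 and 4, DOX 3 day replicates 2, 3 and 4, DMSO 6 day replicate 2 and DOX 6 day replicates 2, 3 and 4), with values of 0.28 to 0.36 there. The call for *Hbegf* was kept with the offset (-0.35, adjusted p = 0.00284, edgeR) and lost on leaving out DMSO 3 day replicate 3, DOX 3 day replicate 2 or 3, DMSO 6 day replicate 2 or DOX 6 day replicate 3 or 4, with values of -0.26 in each. Without DOX 3 day replicate 1, where the share of all tested genes rose to 28.7%, the difference was also called for *Erbb2* (0.29, adjusted p = 0.0257, edgeR) and *Erbb3* (0.32, adjusted p = 0.00493, edgeR), and *Erbb3* was also called without DOX 6 day replicate 1 (0.29, adjusted p = 0.0309, edgeR).

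Within a treatment, edgeR's test called none of the 8 genes between times. Between 3 and 6 days of DMSO edgeR called 0 of the 8 genes and 0% of all tested genes, 1 of the 8 had an unadjusted p under 0.05 (*Areg*, log2 fold change 0.46, SE 0.172), and DESeq2 called 0. Between 3 and 6 days of DOX edgeR called 0 of the 8 against 3.94% of all tested genes, 0 had an unadjusted p under 0.05, and DESeq2 called 0. Without a fold threshold *Hbegf* (-0.20) and *Tgfa* (-0.16) were called lower at 6 than at 3 days of DOX, against 30.2% of all tested genes.

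Expressed as a share of the summed TPM of the 7 ligand genes, *Areg* took 8.37% ± 0.9197 (SD, n = 4) in DMSO and 18.1% ± 4.74 in DOX at 3 days, and 11.5% ± 2.21 and 22.4% ± 1.61 at 6 days. *Hbegf* went the other way, at 46.8% ± 1.55 and 41.3% ± 1.97 at 3 days and 48.4% ± 2.87 and 36.8% ± 1.58 at 6 days. *Tgfa* had 22.3% ± 1.31 and 16.7% ± 1.17 at 3 days and 19.4% ± 0.491 and 15.5% ± 1.06 at 6 days. These shares restate the levels above on a scale that divides by transcript length, and they carry no test. The shares depend on how length is counted: with CPM per kilobase of annotated transcript, the share of *Areg* was 5.18% without and 11.6% with DOX at 3 days, and 7.14% without and 14.6% with it at 6 days. The ratio of *Areg* to *Tgfa* in TPM was 0.376 ± 0.0525 in DMSO and 1.10 ± 0.350 in DOX libraries of 3 days. In those of 6 days it was 0.590 ± 0.106 and 1.46 ± 0.198. In TPM at 6 days *Areg* was thus the third most abundant of the 10 genes under DOX (15.4 ± 1.37 TPM), with libraries that overlapped those of *Erbb3*. It was the seventh under DMSO (8.93 ± 1.63 TPM). This order and the ratio to *Tgfa* depend on the scale. With CPM per kilobase, the share of *Areg* under DOX at 6 days (14.6%) was below those of *Tgfa* (26.7%) and *Nrg1* (18.1%).

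Among the receptors, *Egfr* took 51.5% ± 0.668 of the summed TPM of the 3 genes in DMSO and 56.9% ± 4.05 in DOX at 3 days, and 52.1% ± 0.809 and 60.6% ± 1.75 at 6 days. *Erbb2* had 24.8% ± 0.496 and 21.2% ± 1.57 at 3 days and 24.96% ± 1.47 and 19.5% ± 1.09 at 6 days. At 6 days the shares of *Egfr* and of *Erbb2* did not overlap between treatments. The summed TPM of the 7 ligands was 77.8 ± 2.15 in DMSO and 68.5 ± 2.74 in DOX at 6 days, while that of the 3 receptors was 71.1 ± 3.45 and 67.8 ± 6.30 with overlapping libraries. TPM as a scale moved the median of all tested genes by -0.15 on the log2(TPM + 1) scale under DOX at 3 days and by -0.05 at 6 days, so sums in TPM at 3 days are not read as changes.

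**Figure D3:**
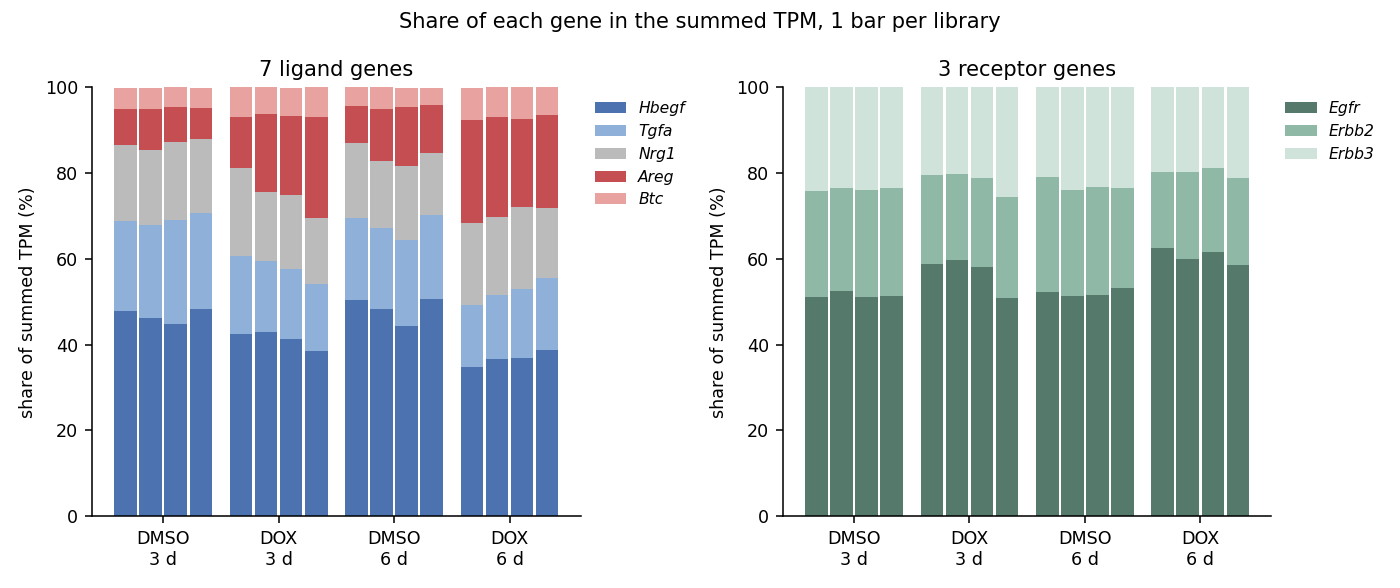
Share (%) of each gene in the summed TPM of the 7 ligand genes (left) and of the 3 receptor genes (right), with 1 bar per library in replicate order within each group. *Areg* takes 7.32% to 13.9% in DMSO libraries and 12.05% to 24.03% in DOX libraries, and *Ereg* and *Epgn*, at most 0.163% each, are too small to draw.

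Of 5 other genes of the family, *Egf* alone was abundant enough to be tested, and it was not called: log2 fold change 0.19 (SE 0.441, or 0.27 with the length and GC offset) at 3 days and 0.09 (SE 0.411) at 6 days. Its libraries were widely spread, from 1.955 to 9.05 CPM over all groups. *Erbb4*, the fourth receptor, was low, with 12 to 33 counts in DMSO and 4 to 10 counts in DOX libraries at 3 days, and 5 to 24 and 3 to 9 counts at 6 days. These groups did not overlap at 3 days, and in the fit without the filter on low counts its log2 fold change was -1.57 (SE 0.388, adjusted p = 0.00486, edgeR) at 3 days and -1.21 (SE 0.446, adjusted p = 0.0993, edgeR) at 6 days. That fit had no length and GC offset, so the part of the length trend in the 3 day value of *Erbb4* was not tested. The neuregulins *Nrg2*, *Nrg3* and *Nrg4* had at most 13, 2 and 4 counts in a library.

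Counts in the next 4 gene lists are to be read against the 12.5% of all tested genes called at 3 days (5.3% higher, 7.22% lower) and 21.6% at 6 days (10% higher, 11.6% lower). Of 12 tested genes of ligand shedding and trafficking 0 were higher and 2 lower at 3 days. At 6 days 1 was higher and 2 were lower. These counts were near those shares, with median log2 fold changes of -0.26 and -0.12 against 0.00 for all tested genes. At an unadjusted p under 0.05, 1 was higher and 4 were lower at 3 days, and DESeq2 called 0 there and 1 lower at 6 days. At 3 days the length and GC offset gave 1 higher and 1 lower, against 11.7% of all tested genes, with a median of -0.19. *Adam17*, the main sheddase of AREG, TGFA and HBEGF, fell at 6 days from 49.2 ± 3.82 to 33.7 ± 1.88 CPM (log2 fold change -0.55, SE 0.065, adjusted p = 0.000247, edgeR), and was at -0.37 and not called at 3 days (adjusted p = 0.0991, edgeR). *Rhbdf2*, which encodes a rhomboid-like partner (iRhom2) of ADAM17, rose at 6 days from 20.4 ± 1.77 to 28.2 ± 2.74 CPM (log2 fold change 0.47, SE 0.101, adjusted p = 0.0351, edgeR). *Frmd8*, which stabilises the ADAM17 complex at the surface, fell at 3 days (-0.44, SE 0.062, adjusted p = 0.0121, edgeR, and -0.37 with the offset). *Bace1*, a protease that cuts neuregulin 1, fell at both times (-0.52 at 3 days and -0.44 at 6 days), and with the offset its value at 3 days was -0.38 and was not called (adjusted p = 0.163, edgeR).

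The next list held 14 genes chosen as likely negative regulators of the receptors, and the direction in which each acts was not tested here. Of these, 0 were higher and 3 lower at 3 days, and 1 was higher and 1 lower at 6 days, with medians of -0.15 and -0.06. At an unadjusted p under 0.05, 2 were higher at 3 days, where DESeq2 called 0 higher and 2 lower. Without DOX 3 day replicate 1, 1 was higher and 4 were lower at that time, against 17.4% of all tested genes. The offset gave 1 higher and 3 lower at 3 days, with a median of -0.07 against 0.03 for all tested genes. The offset gave -0.76 for *Errfi1*, -0.47 for *Lrig1* and -0.40 for *Ptpn1* at 3 days, all called, and *Lrig3* was the gene called higher (0.58, adjusted p = 0.0135, edgeR). *Errfi1*, a feedback inhibitor (MIG6) that binds the receptor kinase, fell from 128 ± 7.29 to 71.1 ± 2.24 CPM at 3 days (log2 fold change -0.84, SE 0.058, adjusted p = 2.49e-08, edgeR) and from 122 ± 7.78 to 65.5 ± 3.11 CPM at 6 days (-0.90, SE 0.058, adjusted p = 2.76e-09, edgeR). The leucine-rich repeat gene *Lrig1*, whose product promotes receptor degradation, fell at 3 days (-0.58, SE 0.083, adjusted p = 0.00161, edgeR), and so did the phosphatase *Ptpn1* (-0.45, SE 0.062, adjusted p = 0.00893, edgeR). *Lrig3*, a relative of *Lrig1*, rose at 6 days from 7.30 ± 1.55 to 15.7 ± 1.07 CPM (log2 fold change 1.10, SE 0.118, adjusted p = 1.87e-06, edgeR).

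Among adaptors and the kinase cascade, edgeR called 0 of the 22 tested genes at 3 days, with 1 at an unadjusted p under 0.05 and 0 by DESeq2, and the median was -0.12. Without DOX 3 day replicate 1, 1 was lower. The length and GC offset also gave 0 calls at 3 days, and the median was -0.01. At 6 days 2 were higher, against 10% of all tested genes, with a median of -0.01 over the list, and the lower calls of this list at 6 days are not given here. At 6 days *Sos2*, a RAS exchange factor, rose by a log2 value of 0.52 (SE 0.068, adjusted p = 0.00107, edgeR), and the docking protein gene *Gab2* rose by 0.44 (SE 0.089, adjusted p = 0.0385, edgeR).

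Of 17 genes that the ERK branch is known to induce, 2 rose and 5 fell at 3 days, and 1 rose and 5 fell at 6 days, with medians of -0.17 and -0.29. The offset gave 2 higher and 4 lower at 3 days, with a median of -0.06 against 0.03 for all tested genes, and at 6 days the counts were 1 and 5. At 6 days *Fos*, an AP-1 subunit, fell from 10.2 ± 0.900 to 5.17 ± 0.821 CPM (log2 fold change -0.97, SE 0.121, adjusted p = 1.67e-05, edgeR), the AP-1 subunit *Fosl1* fell from 27.8 ± 3.26 to 14.8 ± 0.210 CPM (-0.92, SE 0.085, adjusted p = 4.70e-07, edgeR) and *Phlda1* fell from 33.6 ± 2.402 to 17.4 ± 1.72 CPM (-0.95, SE 0.080, adjusted p = 1.10e-07, edgeR). *Etv5*, an ETS factor of the same list, moved the other way and rose from 6.49 ± 1.03 to 14.2 ± 0.999 CPM (1.13, SE 0.108, adjusted p = 4.00e-07, edgeR). At 3 days the largest of the called changes in this list were *Etv5* at 0.93 and *Fos* at -0.85 (0.98 and -0.90 with the offset). Without DMSO 6 day replicate 1, 7 of the 17 genes were lower at 6 days instead of 5, where 23.2% of all tested genes were called in either direction instead of 21.6%.

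**Figure D4:**
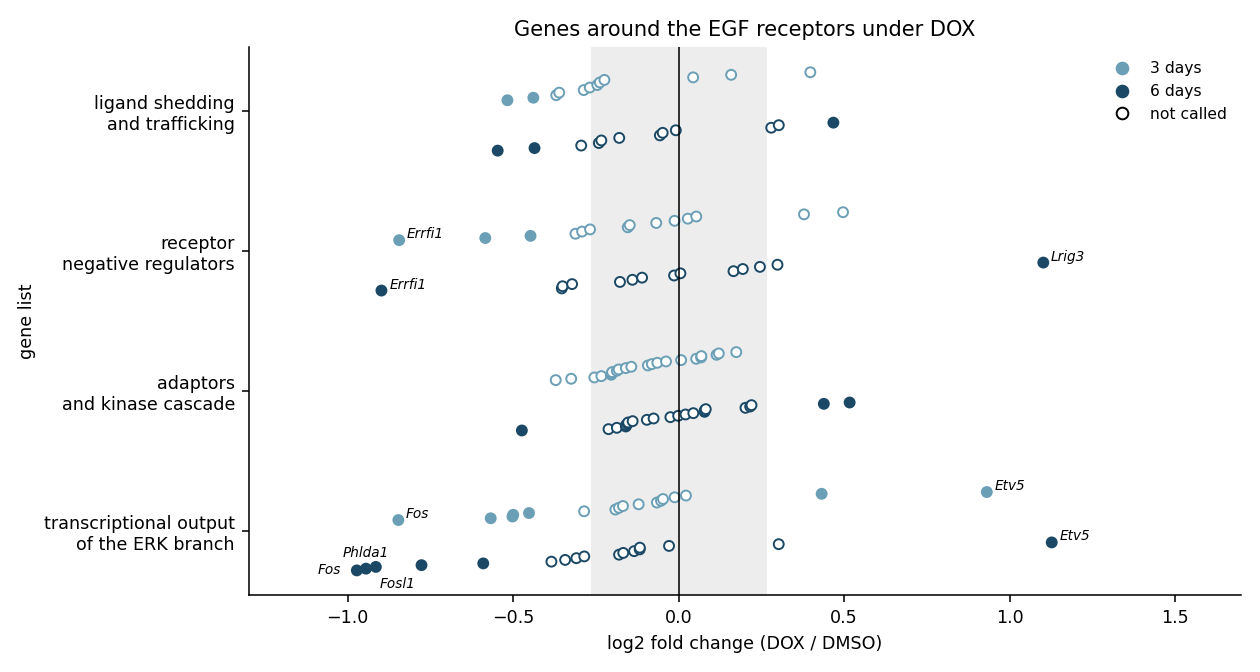
Log2 fold change of DOX against DMSO (x axis) for the tested genes of 4 lists (y axis), 1 point per gene, light blue for 3 days and dark blue for 6 days, filled where called and with a grey band for changes under 1.2-fold. *Errfi1* falls at both times, *Etv5* rises at both, and points of the adaptor list reach at most 0.52.

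The genes with the pattern most like each ligand called at both times were found by Pearson correlation of log2 CPM over the 16 libraries, which share the same treatments, so the values are descriptions. For *Areg* they were *Cacybp* (r = 0.989), *Hdhd2* (r = 0.965) and *Pa2g4* (r = 0.961). For *Tgfa* they were *Shroom3* (r = 0.992), *Cgn*, which encodes the tight junction protein cingulin (r = 0.991), and *Cttnbp2nl* (r = 0.987). For *Btc* they were *Psmc2*, a proteasome subunit gene (r = 0.958), *Nabp2* (r = 0.955) and *Abhd14a* (r = 0.955). Within groups r ran from 0.644 (*Abhd14a* with *Btc*) to 0.936 (*Cacybp* with *Areg*). The 3 genes most like *Areg* changed less than *Areg* itself, with log2 fold changes of 0.25 to 0.38 at 3 days. There edgeR called 0 of them, against 12.5% of all tested genes, with 1 at an unadjusted p under 0.05 and 0 by DESeq2. Each gene most like *Tgfa* was called lower at both times (-0.61 to -0.47 at 3 days). Each gene most like *Btc* was called higher at 3 days (0.38 to 0.72). All were picked by likeness over these same libraries, so their calls are no separate evidence.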

How the data were processed

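RNA-seq libraries (2 × 75 base read pairs) were aligned by the authors to GRCm38.p6 with STAR 2.6.0c and quantified with Salmon. The authors deposited estimated counts per gene, without normalization, and TPM. Here the estimated counts were rounded, a gene was tested if 4 or more libraries reached 1 CPM, and a robust quasi-likelihood model with TMM scaling and 1 mean per group was fitted to all 16 libraries with edgeR 4.0.16 (R 4.3.3). DOX was compared with DMSO at each time, and times within each treatment, by glmTreat at a fold threshold of 1.2, and the difference between times by glmQLFTest. Tests were two-sided, p was adjusted by Benjamini-Hochberg over all 13234 tested genes with a limit of 0.05, and the SE is the log2 fold change divided by the square root of F. CPM values are TMM-scaled. TPM was used for levels between genes. Gene positions are from GENCODE M21 and promoters from RefSeq.

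The genes, lists and tests were chosen with earlier results of these data known. From each list all called genes are named where at most 5 were called at a time, and otherwise the 4 with the largest change at 6 days (all 5 other family genes are named). The result for 1 gene of the adaptor list is left out of the text. The 3 genes most like each ligand called at both times are named too. Alternatives were RLE scaling, DESeq2 1.42.0, limma 3.58.1 (treat) on log2(TPM + 1) and log2(TPM + 0.1), other filters and thresholds, fits without robust estimation or on 8 libraries, the replicate block, the length and GC offset (splines with 5 degrees of freedom) and leaving out each library. Calculations were tested on simulated data. Total counts per library limit precision as given above, and the floor of 3 counts covers counting error only.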

Additional observations from a re-analysis of the deposited data

Results flagged for a closer look

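In 4 of the 32 groups of 4 libraries checked for the 8 tested genes, 1 library stood further from the others than Dixon's test at 95% allows, where chance gives about 1 in 20 groups. They were *Erbb2* in DOX 3 day replicate 1 (60.3 CPM, against 46.7 to 48.4 CPM in the others), *Erbb3* in the same library (78.3 CPM, against 64.4 to 66.4 CPM), *Erbb3* in DMSO 6 day replicate 1 (75.3 CPM, against 82.8 to 84.0 CPM) and *Hbegf* in DMSO 6 day replicate 3 (61.9 CPM, against 71.7 to 73.6 CPM). The effect of DOX differed between 3 and 6 days by edgeR's test of the difference for *Egfr* (0.34 on the log2 scale, 6 days minus 3 days, adjusted p = 0.0421) and for *Hbegf* (-0.27, adjusted p = 0.0278).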

How the results depend on the processing

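No result changed sign where it was called. Of the 8 tested genes 5 were called at 3 days, against 12.5% of all tested genes. The count was 3 under DESeq2 (against 7.7%), limma on log2(TPM + 1) (5.32%), no filter on low counts (4.9% of 34114 genes) and the length and GC offset (11.7%). It was also 3 under that offset with the replicate block, and 4 to 5 on leaving out 1 library. At 6 days 4 of the 8 were called, against 21.6%. The count was 2 under limma with either pseudocount (against 9.92% on log2(TPM + 1)), 7 without a threshold (50.6%) and 4 to 5 on leaving out 1 library. For times within DOX no threshold gave 2 (against 30.2%) instead of 0 (3.94%), and leaving out 1 library gave 0 to 0 within DOX and within DMSO. The count of genes whose effect differed between times was 2 of 8, against 17%. It became 1 with the length and GC offset (against 15.1%), with the replicate block (13.4%) or with both. It became 0 with a threshold of 1.2 or under limma with either pseudocount, and 0 to 4 on leaving out 1 library. Where no share of all tested genes stands beside a count in this paragraph, the count is not read as a result about these genes. *Tgfa* at 3 days lost its call under DESeq2 (-0.41, adjusted p = 0.0767) and without the filter (-0.42, adjusted p = 0.0658), *Btc* at 3 days under DESeq2 (0.48, adjusted p = 0.401), both limma fits, both other filters and the replicate block, and *Tgfa* and *Btc* at 6 days in both limma fits. *Nrg1* was not called under any of the alternatives at 3 days (-0.29 to 0.06) or 6 days (-0.02 to 0.19). Equally numbered libraries did not deviate together (r of their deviations -0.433 to 0.178 over genes, mean -0.122 to -0.096 per pair of groups), so the numbers are not taken as pairs. With the replicate block, 4 genes were called at 3 days (against 11.9%), where *Btc* was lost (adjusted p = 0.0502, edgeR). At 6 days 4 were called (20.9%), and 1 for the difference between times (13.4%), where *Egfr* was lost (0.34, adjusted p = 0.0660, edgeR). The causes were not tested. Depth limits *Ereg*, *Epgn* and *Erbb4*.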
